A study of Mus musculus with 28 samples.

Results

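MHC class I antigen presentation was followed here through 10 genes, of 55413 gene IDs in the deposited counts, in CD3+ T cells sorted with magnets from mouse spleen and sequenced as bulk RNA. The members were chosen by symbol: the classical heavy chains H2-K1 and H2-D1, their light chain B2m, the peptide transporter subunits Tap1 and Tap2, the loading factors Tapbp, Pdia3 and Calr, and the immunoproteasome subunits Psmb8 and Psmb9. Of these, 7 lie on chromosome 17, B2m and Pdia3 on chromosome 2 and Calr on chromosome 8.

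All donors were male C57BL/6J mice of 8 to 12 weeks, and each library came from 1 mouse. The rPS group (5 mice) received rapamycin, an inhibitor of the kinase mTOR, loaded into polymersomes, which are hollow vesicles of the block copolymer PEG-b-PPS, by subcutaneous injection. The R group (6 mice) received free rapamycin subcutaneously in 0.2% carboxymethyl cellulose (CMC). The RO group (6 mice, of which 5 are used) received the oral formulation Rapamune by gavage. The PS group (4 mice) received empty polymersomes subcutaneously, and the NT group (7 mice) was left untreated. Treated mice received 11 doses, 1 a day for 11 days, with 1 mg/kg of rapamycin at 0.125 mg/ml in the drug groups and 60 mg/kg of polymer at 7.5 mg/ml in the polymersome groups. No group received CMC alone, so a difference between R and NT covers the drug, its vehicle and the injections.

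Class I molecules display peptides from proteins made inside the cell to CD8 T cells, and nearly all nucleated cells, T cells included, carry them. Proteasomes cut the proteins, with immunoproteasome subunits replacing the standard catalytic subunits, and the TAP transporter moves the peptides into the endoplasmic reticulum. There tapasin, ERp57 and calreticulin hold the heavy chain and beta-2 microglobulin until a peptide binds. Interferons raise the transcription of most of these genes through factors that include the IRF family, and NLRC5 acts with the RFX complex and NF-Y on the heavy chain and B2m promoters.

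The 27 libraries used held between 4286897 and 15696546 counts. One oral library (RO replicate 7) was left out by the rule that set the members, as truncated. It lists at 0 a set of 4912 genes that were above 0 in all 27 libraries used. It lists 7 of the 10 members at 0, all on chromosome 17, beside 692 CPM (the count of a gene after scaling each library to 1 common total) of B2m. Its total lacks the missing genes, so that value is not comparable with those of the other libraries. In R replicate 3, RO replicate 3 and NT replicates 3, 4, 7 and 8, which make 6 libraries, the mean log2 level of 16 T cell markers lay below that of 15 monocyte and macrophage markers, against the label. The summed T cell markers ran from 232 to 801 CPM in those 6 and from 1382 to 6436 CPM in the other 21. The summed monocyte and macrophage markers ran from 5247 to 9556 CPM and from 228 to 3318 CPM. The 12 B cell markers summed to between 1572 and 4772 CPM in those 6 and between 516 and 6265 CPM in the other 21. In the other 21 their median sum was 4234 CPM, beside 3386 CPM for the 16 T cell markers. NT replicate 5 stood near the limit that set the 6 apart, with a difference of 0.22 between its T cell mean and its monocyte and macrophage mean. Malat1 and the mitochondrial ribosomal RNA mt-Rnr2 were listed at 0 in all 7 NT libraries but reached at least 1854 CPM in all 20 treated ones, and no other group had such a gene. Whether the NT files were made in the same way is not given in the sources used here, and its part in any difference from NT was not tested. The labels do not pair the mice across groups, and p-values measure the spread between these mice.

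Promoter sequences were available for 9 of the 10 members (RefSeq, build GRCm38.p6, 250 bases before to 50 bases after an annotated start). The windows below are shown because some of the letters searched set the heavy chains apart from the other members, and because Tap1 and Psmb9 share theirs. Each is printed 5′ to 3′ on the gene's own strand from 250 bases before the start to 30 bases into the transcript. Capitals mark matches, on either strand, to the kappaB letters GGGGATTCCCC (taken from the H2-K1 window itself), to the interferon response repeat GAANNGAAA or to the Y box CCAAT. No 2 of these marked matches overlap.
H2-K1, chr17:34000318-34000597, minus strand: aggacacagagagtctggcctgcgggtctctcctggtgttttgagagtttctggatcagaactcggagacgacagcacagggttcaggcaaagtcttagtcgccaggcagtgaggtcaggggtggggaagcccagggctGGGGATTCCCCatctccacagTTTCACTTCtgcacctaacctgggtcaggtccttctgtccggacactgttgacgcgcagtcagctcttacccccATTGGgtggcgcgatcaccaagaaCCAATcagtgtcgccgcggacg
H2-D1, chr17:35262844-35263123, plus strand: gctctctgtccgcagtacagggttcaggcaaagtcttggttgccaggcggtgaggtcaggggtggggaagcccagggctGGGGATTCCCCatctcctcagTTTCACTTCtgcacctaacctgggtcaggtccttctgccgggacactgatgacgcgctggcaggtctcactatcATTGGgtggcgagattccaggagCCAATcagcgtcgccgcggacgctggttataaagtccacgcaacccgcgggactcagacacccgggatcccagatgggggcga
B2m, chr2:122147437-122147716, plus strand: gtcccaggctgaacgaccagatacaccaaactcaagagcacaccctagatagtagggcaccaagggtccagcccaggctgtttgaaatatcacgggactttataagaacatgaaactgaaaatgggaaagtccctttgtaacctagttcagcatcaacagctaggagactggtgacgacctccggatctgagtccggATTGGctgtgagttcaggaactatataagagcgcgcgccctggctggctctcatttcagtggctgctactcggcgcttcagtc
Tap1, chr17:34187306-34187585, plus strand: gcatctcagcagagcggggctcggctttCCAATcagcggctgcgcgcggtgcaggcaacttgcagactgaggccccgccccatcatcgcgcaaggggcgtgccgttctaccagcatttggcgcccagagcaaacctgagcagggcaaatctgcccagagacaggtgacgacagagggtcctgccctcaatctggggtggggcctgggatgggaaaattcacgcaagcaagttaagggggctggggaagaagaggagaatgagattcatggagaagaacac
Pdia3, chr2:121413652-121413931, plus strand: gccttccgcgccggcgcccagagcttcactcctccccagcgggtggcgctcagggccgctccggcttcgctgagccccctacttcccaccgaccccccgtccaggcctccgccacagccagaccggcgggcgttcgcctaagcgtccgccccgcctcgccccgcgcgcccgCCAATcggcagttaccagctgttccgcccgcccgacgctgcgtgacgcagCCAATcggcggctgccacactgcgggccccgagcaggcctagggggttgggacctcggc

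The kappaB letters were found in H2-K1 and H2-D1 and in no other member window, and 0.0304% of the 32851 windows of 300 bases in the table hold them; the match in H2-K1 follows from the choice of letters. Likewise, GAANNGAAA was found in both heavy chain windows and in none of the other 7, beside 7.52% of all windows. CCAAT was present in 8 of the 9 member windows, all but Psmb8, against 37.4% of all windows. The CRE core TGACG was present in 6 of 9 (20.8% of all windows) and the TATA letters TATAAA in 5 of 9 (13.6% of all windows). With a shift of 60 bases, 176 of 240 aligned bases (73.3%) were identical between the H2-K1 and H2-D1 windows. TATAAA begins 26 bases before the start in H2-D1 and, beyond the stretch printed, at base 36 of the H2-K1 transcript. The other matches, on either strand, begin at base -152 in B2m, -237 in Psmb8 and 34 in Calr, counted from the start. Tap1 and Psmb9 start 226 bases apart on opposite strands, and 275 of the 300 bases of their windows are the same DNA. A match of letters is a description of these windows only. Other letters for these elements were not searched, so a window without a match may still hold such an element. For example, the B2m window holds gaaactgaaa, which GAANNGAAA does not match.

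H2-K1 and H2-D1 were the most abundant members. Per kilobase of exon, H2-D1 had a median level over the 27 libraries of 768 CPM per kb, H2-K1 686, B2m 435, Tapbp 136, Calr 114, Tap2 72.1, Tap1 68.5, Pdia3 61.1, Psmb8 57.3 and Psmb9 29.2. Together the members took between 0.523% and 0.850% of a library's counts. All 10 passed the filter on low counts, and the lowest count of any member in any library was 412. B2m spanned a 10.3-fold range over the libraries, while the other members spanned between 1.71-fold (Psmb9) and 2.79-fold (Pdia3).

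**Figure D1:**
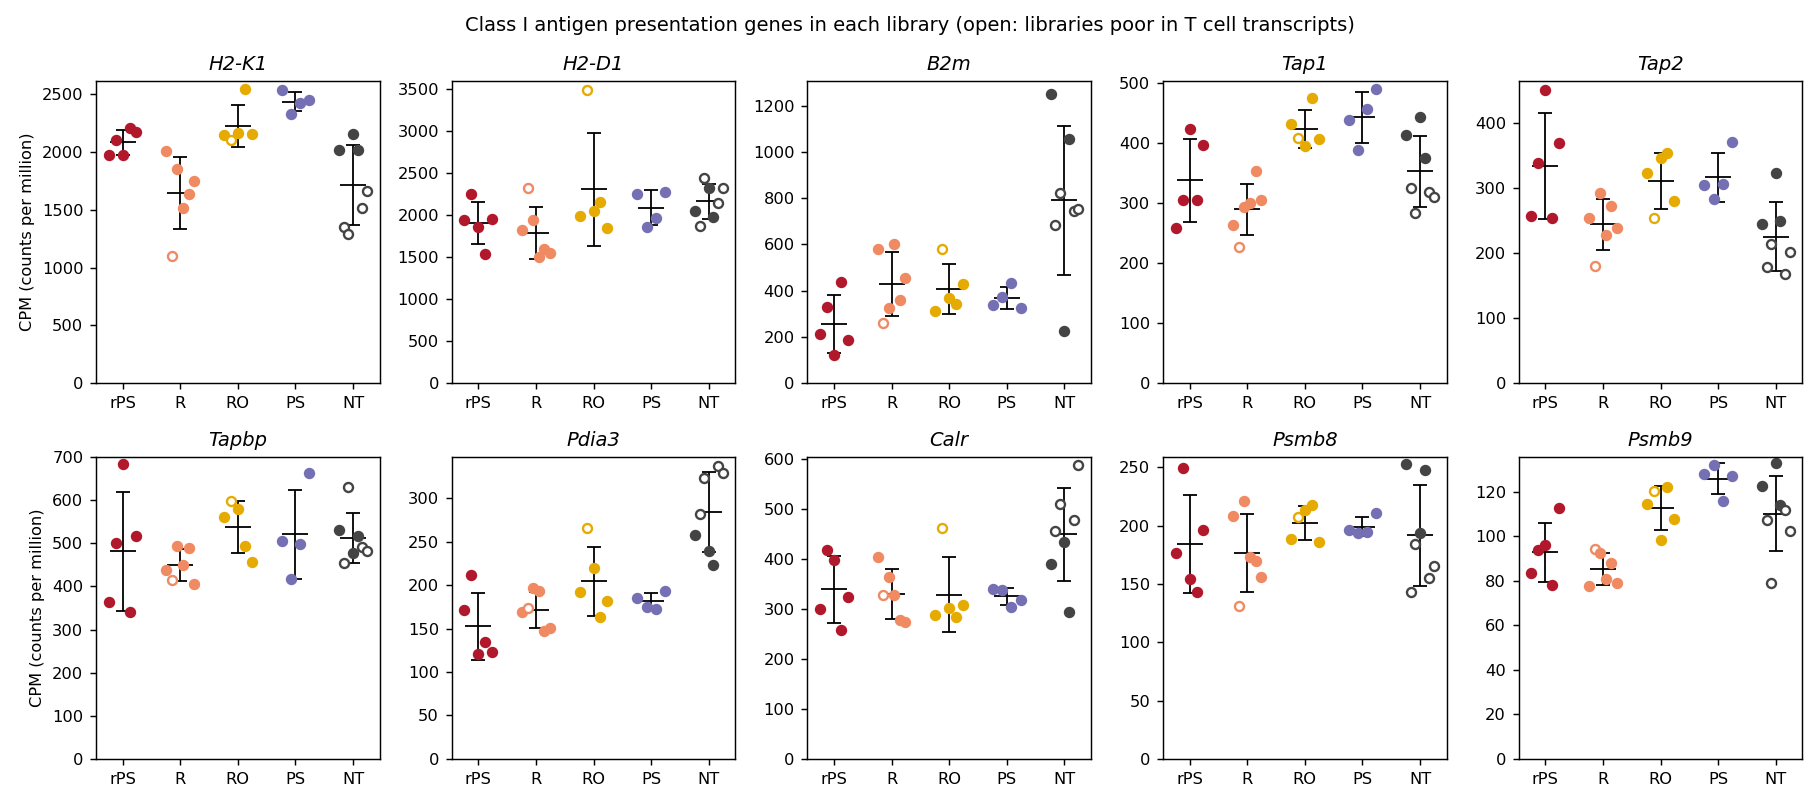
CPM of the 10 members in each of 27 libraries, 1 panel a gene, with groups from rPS to NT along the axis. Points are mice, bars the mean ± SD of the group, and open points the 6 libraries poor in T cell transcripts. For B2m, 6 of the 7 NT points lie above all 20 treated points, and for Pdia3 every NT point lies above every rPS, R and PS point.

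In loaded polymersome mice 4 of the 10 members differed from untreated mice: B2m, Pdia3 and Psmb9 were lower and Tap2 was higher (edgeR quasi-likelihood test, Benjamini-Hochberg adjusted p under 0.05 over 17132 genes). Of all genes tested, 21.5% were called in that comparison, 10.6% higher and 10.9% lower. Against NT, R had 1 member called (Pdia3, lower; 0.665% of all genes in either direction, 0.607% lower), PS had 2 (B2m and Pdia3, both lower; 4.97% of all genes in either direction, 2.46% lower) and RO had none (0.0117% of all genes). The 4 comparisons share the NT libraries. In the oral group 5 members had an unadjusted p under 0.05. There DESeq2 called 0 members (0.986% of all genes) and limma voom with sample weights 6 (47.2% of all genes). The median log2 fold change of the 10 members was -0.20 in rPS, -0.30 in R, 0.02 in RO and -0.08 in PS, against -0.01, 0.00, -0.01 and -0.02 for all genes.

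**Figure D2:**
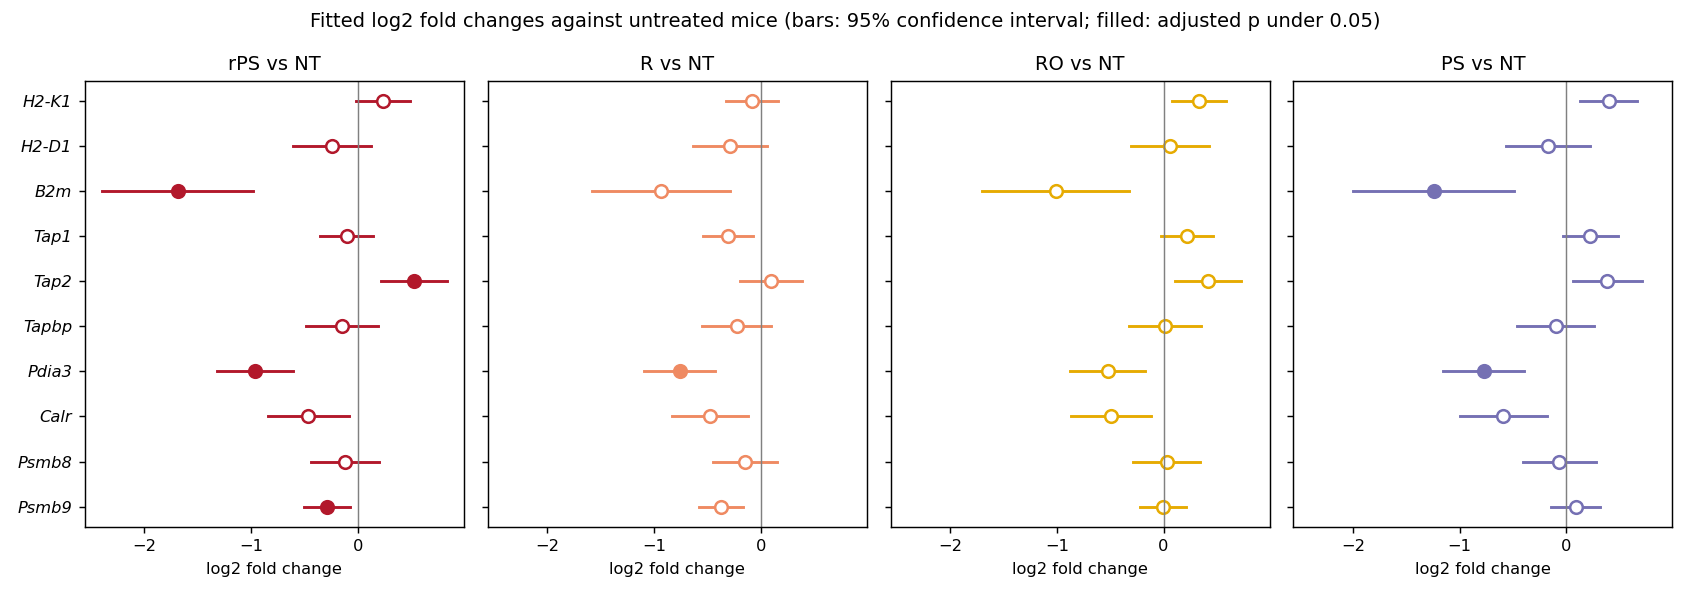
Fitted log2 fold change of each member (rows, in the order heavy chains, light chain, transport and loading, immunoproteasome) in rPS, R, RO and PS, each against NT. Bars are 95% confidence intervals, and filled points have an edgeR adjusted p under 0.05. B2m and Pdia3 lie left of 0 in all 4 panels, and their intervals exclude 0 in each.

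Other cells of the spleen moved with the same comparisons. Of 12 B cell markers, 1 (Ms4a1) was lower in rPS than in NT, beside 10.9% of all genes called lower. All 12 had negative log2 fold changes there (median -0.38). In R, RO and PS none of the 12 was called, and 9, 6 and 5 of them were positive (medians 0.21, -0.02 and -0.10). In rPS against NT, 12 of 12 neutrophil markers, 8 of 8 plasma cell markers, 5 of 15 monocyte and macrophage markers, 4 of 10 dendritic cell markers and 4 of 7 NK cell markers were lower, while none of the 16 T cell markers was called and all 16 had a positive log2 fold change (median 0.57). In PS against NT, 7 of 12 neutrophil, 3 of 15 monocyte and macrophage, 3 of 8 plasma cell, 2 of 7 NK cell and 1 of 10 dendritic cell markers were lower. In R, 4 of 8 plasma cell markers and 1 of 7 NK cell markers were lower. No neutrophil or monocyte marker passed the edgeR threshold in R, where all 12 and all 15 had negative log2 fold changes (medians -1.47 and -0.53; 4 and 1 with an unadjusted p under 0.05). In RO none of these markers passed it, where all 12 neutrophil markers were negative (median -2.88; 11 with an unadjusted p under 0.05) and all 15 monocyte and macrophage markers were too (median -0.38; 0 with an unadjusted p under 0.05). Within the NT group, H2-K1, Tap1, Tap2, Psmb8 and Psmb9 were lower in the 4 libraries poor in T cell transcripts than in the other 3, Pdia3 and Calr were higher, and H2-D1, B2m and Tapbp overlapped. That split was set by marker levels in these same libraries, and the share of all genes it separates was not computed. Fits without the 6 libraries poor in T cell transcripts, and fits with B cell and monocyte marker levels as covariates, are given below where they change the call of a member. For other values they are given only in part. Beyond these fits the part of cell makeup in the differences from NT was not tested.

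H2-K1 encodes the K heavy chain. Its level was 1974, 2099, 1975, 2204 and 2174 CPM in rPS mice, between 1103 and 2006 CPM in R mice (median 1693), 2147, 2104, 2167, 2541 and 2157 CPM in RO mice, 2531, 2330, 2421 and 2447 CPM in PS mice, and between 1289 and 2157 CPM in NT mice (median 1660). The lowest PS mouse stood above the highest NT mouse, a separation that 10% of genes with at least 270 counts showed between these groups, and the fitted log2 fold change was 0.40 ± 0.13 (SE, adjusted p = 0.0589), short of the threshold. Leaving out NT replicate 2, 5 or 6, R replicate 3 or RO replicate 3 brought it under the threshold (log2 fold changes of 0.40 to 0.45, adjusted p of 0.0342 to 0.0479). Without the 6 libraries poor in T cell transcripts the value was 0.18 (adjusted p = 0.501). In rPS, R and RO the log2 fold changes from NT were 0.24, -0.08 and 0.33, with adjusted p of 0.152, 0.767 and 0.277. DESeq2 called H2-K1 in PS (0.39, adjusted p = 0.0203), where it called 17.2% of all genes. Limma voom with sample weights called H2-K1 in rPS, RO and PS, where it called 35.5%, 47.2% and 54.8% of all genes.

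H2-D1 encodes the D heavy chain. Its level was 1942, 2248, 1859, 1534 and 1950 CPM in rPS mice, between 1499 and 2318 CPM in R mice (median 1710), 1996, 3496, 2046, 2151 and 1843 CPM in RO mice, 2257, 1854, 1967 and 2274 CPM in PS mice, and between 1865 and 2446 CPM in NT mice (median 2141). The groups overlapped, and its log2 fold changes from NT lay between -0.29 (R) and 0.06 (RO), with adjusted p of 0.331 or more. The highest value, 3496 CPM, was that of RO replicate 3, poor in T cell transcripts.

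The balance of both heavy chains differed between libraries by their marker levels. The count ratio of H2-K1 to H2-D1 was 0.476 to 0.724 in the 6 libraries poor in T cell transcripts and 0.926 to 1.44 in the other 21, without overlap. This ratio was examined after its values were seen and is given with no test. By group its median was 1.06 in rPS, 1.02 in R, 1.08 in RO, 1.18 in PS and 0.724 in NT, the group that holds 4 of those 6 libraries. Class I heavy chains are near copies of each other, so their reads may be split between genes by the counting, although neither had a fractional count in any library.

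B2m encodes beta-2 microglobulin, the light chain that every classical class I molecule needs to reach the surface. Of the 10 members it had the largest fitted change against NT in all 4 treated groups. Its level was 212, 328, 121, 437 and 188 CPM in rPS mice, between 260 and 600 CPM in R mice (median 407), 313, 582, 367, 344 and 431 CPM in RO mice, 339, 374, 433 and 323 CPM in PS mice, and 1249, 686, 821, 225, 1056, 743 and 751 CPM in NT mice. So 6 of the 7 NT mice stood above all 20 treated mice, and NT replicate 5, at 225 CPM, stood among the treated ones.

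Mean B2m was 257 ± 125 CPM in rPS mice (SD, n = 5) and 790 ± 321 CPM in NT mice (SD, n = 7), a fitted log2 fold change of -1.69 ± 0.34 (SE, edgeR adjusted p = 0.00263), or 0.310 of the NT level. The call held without each library in turn (log2 fold changes of -1.96 to -1.51) and without the 6 libraries poor in T cell transcripts (-1.75, adjusted p = 0.0275), where 2 members were called, B2m and Pdia3, with 3.19% of all genes. It missed the threshold when rPS replicate 4, the lowest at 121 CPM, was left out as well (-1.58, adjusted p = 0.0537). In PS mice the value was -1.25 ± 0.37 (adjusted p = 0.0491), at the edge of the threshold: it was lost in 20 of 27 fits that each left out 1 library (adjusted p of 0.0507 to 0.128 in those, and held without NT replicate 5 or 6, R replicate 3, RO replicate 3, or rPS replicate 2, 4 or 5), and it was lost without the 6 libraries (-1.31, adjusted p = 0.211). In R and RO mice it was -0.93 (adjusted p = 0.172) and -1.01 (adjusted p = 0.241), and without the 6 libraries -0.90 (adjusted p = 0.541) and -1.31 (adjusted p = 0.429). Without NT replicate 5 both fell under the threshold (R -1.10, adjusted p = 0.0233; RO -1.19, adjusted p = 0.0343). With B cell and monocyte marker levels as covariates, the B2m call was lost in PS (-1.13, adjusted p = 0.267) and kept in rPS (-1.93, adjusted p = 0.00167). In bulk samples fewer cells of a type that carries a transcript and less of it per cell cannot be told apart.

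Set against H2-K1 in the same library, B2m had a median count ratio of 0.108 in rPS, 0.248 in R, 0.169 in RO, 0.147 in PS and 0.508 in NT mice. The ratio was 0.104 in NT replicate 5 and between 0.452 and 0.637 in the other 6 NT mice.

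**Figure D3:**
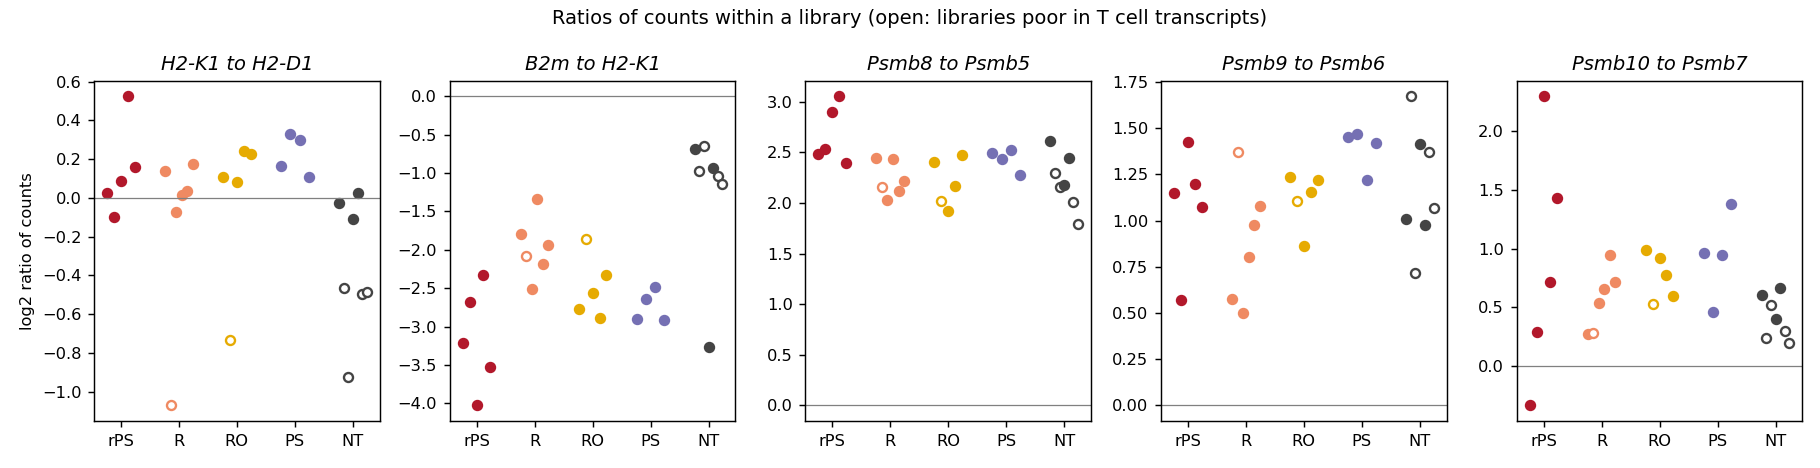
Log2 ratio of the counts of 2 genes within a library, by group from rPS to NT, for both heavy chains, for B2m against H2-K1 and for each immunoproteasome subunit against the standard subunit it replaces. Points are mice and open points the 6 libraries poor in T cell transcripts, which lie lowest of all for H2-K1 to H2-D1. For B2m to H2-K1, NT replicate 5 lies apart from the other 6 NT points.

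Tap1 and Tap2 encode the pair of subunits that make up the TAP transporter. Tap1 had 258, 306, 423, 305 and 396 CPM in rPS mice, between 226 and 353 CPM in R mice (median 296), 431, 408, 394, 474 and 407 CPM in RO mice, 438, 388, 457 and 490 CPM in PS mice, and between 284 and 443 CPM in NT mice (median 325). Against NT, its log2 fold changes were -0.10 in rPS, -0.30 in R, 0.22 in RO and 0.22 in PS, with adjusted p between 0.220 and 0.543.

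Tap2 had 258, 339, 451, 255 and 369 CPM in rPS mice, between 180 and 293 CPM in R mice (median 246), 323, 254, 346, 354 and 281 CPM in RO mice, 306, 284, 307 and 372 CPM in PS mice, and between 167 and 323 CPM in NT mice (median 214). It was the 1 member higher in rPS than in NT, by 0.53 ± 0.15 on the log2 scale (SE, adjusted p = 0.0164), with 3 of 5 rPS mice above the highest NT mouse. Without rPS replicate 4, the highest at 451 CPM, the value was 0.39 (adjusted p = 0.0769), in a fit of these 2 groups alone it was 0.55 (adjusted p = 0.0805), and without the 6 libraries poor in T cell transcripts it was 0.31 (adjusted p = 0.304). RO and PS had log2 fold changes of 0.42 and 0.39 that were not called (adjusted p of 0.260 and 0.104), and R had 0.10. Tap2 shares 14.1% of its exon bases with the opposite-strand gene Gm15821, and the strand setting of the counts is not given.

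Pdia3 encodes ERp57, the thiol oxidoreductase of the loading complex, which also folds other glycoproteins. Its level was 172, 212, 121, 135 and 123 CPM in rPS mice, between 148 and 197 CPM in R mice (median 171), 192, 266, 220, 163 and 182 CPM in RO mice, 186, 174, 172 and 193 CPM in PS mice, and between 224 and 337 CPM in NT mice (median 282). Every rPS, R and PS mouse lay below every NT mouse. Such a separation in either direction was found for 3.31%, 0.615% and 10% of genes with at least 270 counts in these comparisons.

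Pdia3 was lower than in NT, with a log2 fold change of -0.96 ± 0.17 in rPS (SE, adjusted p = 0.00113), -0.76 ± 0.16 in R (adjusted p = 0.0286) and -0.78 ± 0.19 in PS (adjusted p = 0.0364), while RO had -0.52 ± 0.17 (adjusted p = 0.232). Without the 6 libraries poor in T cell transcripts the rPS value was -0.65 and still called (adjusted p = 0.0358), but R had -0.48 (adjusted p = 0.376) and PS -0.47 (adjusted p = 0.242). Each remaining rPS, R, RO and PS mouse lay below the 3 NT mice left, of which the lowest had 224 CPM, a separation shown in either direction by 5.77%, 6.57%, 10.5% and 15.6% of genes with at least 270 counts. With levels of B cell and monocyte markers as covariates, rPS had -0.69 (adjusted p = 0.00135) and R -0.57 (adjusted p = 0.00645), both called, and PS had -0.39 (adjusted p = 0.266). In R the call was lost without NT replicate 4, 7 or 8 or R replicate 2, 5, 6 or 7 (adjusted p of 0.0519 to 0.0978), and in PS without NT replicate 3, 4, 7 or 8 or any PS replicate (adjusted p of 0.0630 to 0.123).

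Calr encodes calreticulin, the lectin chaperone that holds the heavy chain during loading. It had 299, 417, 398, 258 and 324 CPM in rPS mice, between 275 and 403 CPM in R mice (median 327), 287, 462, 301, 284 and 308 CPM in RO mice, 340, 338, 304 and 318 CPM in PS mice, and between 293 and 587 CPM in NT mice (median 456). Its log2 fold changes from NT were -0.46, -0.47, -0.49 and -0.59 in rPS, R, RO and PS, none of them called by edgeR (adjusted p between 0.0619 and 0.284). DESeq2 called it in PS (-0.60, adjusted p = 0.0297), and limma voom with sample weights called it in all 4 groups. Without the 6 libraries poor in T cell transcripts they were -0.11, -0.15, -0.37 and -0.24. With B cell and monocyte marker levels as covariates they were -0.10, -0.30, -0.31 and -0.22. Leaving out NT replicate 6, RO replicate 3 or rPS replicate 2 brought the rPS value under the threshold (-0.56 to -0.46, adjusted p of 0.0284 to 0.0408), as did leaving out NT replicate 5 or 6 or RO replicate 3 for PS (-0.67 to -0.59, adjusted p of 0.0300 to 0.0387).

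Tapbp encodes tapasin, which bridges TAP and the heavy chain. It ranged from 342 to 684 CPM over the 27 libraries, with means of 482 ± 138 CPM in rPS, 449 ± 37 CPM in R, 538 ± 60 CPM in RO, 521 ± 103 CPM in PS and 512 ± 58 CPM in NT mice (SD, n = 5, 6, 5, 4 and 7). The groups overlapped, and log2 fold changes from NT lay between -0.22 and 0.01 with adjusted p of 0.523 or more. Of its exon bases, 24.9% are shared with the opposite-strand gene Gm19412 and 4.11% with Zbtb22 on the same strand, and its counts were fractional in all 27 libraries.

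Psmb8 and Psmb9 encode the immunoproteasome subunits LMP7 and LMP2. Psmb8 had 177, 250, 154, 143 and 196 CPM in rPS mice, between 131 and 221 CPM in R mice (median 171), 188, 208, 213, 218 and 186 CPM in RO mice, 197, 194, 194 and 211 CPM in PS mice, and between 143 and 253 CPM in NT mice (median 185). Its groups overlapped, and its log2 fold changes from NT lay between -0.15 and 0.03 (adjusted p of 0.611 or more). Psmb8 shares 14.7% of its exon bases with the opposite-strand gene Gm20496, and its counts were fractional in 25 of 27 libraries.

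Psmb9 had 83.2, 93.7, 96.1, 78.2 and 112 CPM in rPS mice, between 77.8 and 94.4 CPM in R mice (median 84.3), 114, 120, 98.1, 122 and 108 CPM in RO mice, 128, 132, 116 and 127 CPM in PS mice, and between 79.2 and 133 CPM in NT mice (median 112). It was lower in rPS than in NT, with a log2 fold change of -0.29 ± 0.11, a difference at the edge of the threshold (SE, adjusted p = 0.0495). That call was lost in 23 of the 27 fits that each left out 1 library (adjusted p of 0.0503 to 0.164; it held without NT replicate 4, R replicate 3, RO replicate 3 or rPS replicate 7), and without the 6 libraries poor in T cell transcripts (-0.40, adjusted p = 0.0515). In R it was -0.37 ± 0.10 (adjusted p = 0.0775), and without those 6 libraries -0.55, then called (adjusted p = 0.0353), as it was without R replicate 3 alone (-0.43, adjusted p = 0.0245). In R without those 6 libraries Psmb9 was the 1 member called, beside 0.241% of all genes, since Pdia3 no longer was. With all 27 libraries DESeq2 called Psmb9 in R (-0.38, adjusted p = 0.0183), and so did limma voom with sample weights (-0.43, adjusted p = 0.00012). Those 2 methods called 2.67% and 41.3% of all genes there. In rPS the Psmb9 call was also lost with B cell and monocyte marker levels as covariates (-0.26, adjusted p = 0.1525). RO and PS had 0.00 and 0.09 (adjusted p of 0.987 and 0.610). Psmb9 shares 5.79% of its exon bases with Tap1 on the opposite strand.

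Replacement of the standard catalytic subunits was measured as the log2 ratio of counts within a library, which does not depend on library scaling, with exact two-sided permutation tests over mice. None of the 24 pairs of ratio and comparison passed Benjamini-Hochberg adjustment over the 24. Psmb8 to Psmb5 averaged 2.67 ± 0.29 in rPS, 2.23 ± 0.17 in R and 2.21 ± 0.27 in NT mice (SD, n = 5, 6 and 7). The rPS mean was higher than NT by 0.46 (exact p = 0.0202, adjusted p = 0.121) and than R by 0.44 (exact p = 0.0130, adjusted p = 0.121). Without the 6 libraries poor in T cell transcripts these differences were 0.26 and 0.42. Psmb10, the third immunoproteasome subunit, averaged a log2 ratio to Psmb7 of 0.94 ± 0.37 in PS, 0.76 ± 0.20 in RO and 0.42 ± 0.18 in NT mice (SD, n = 4, 5 and 7). PS was higher than NT by 0.52 (exact p = 0.0121, adjusted p = 0.121) and RO by 0.34 (exact p = 0.0152, adjusted p = 0.121), and without those 6 libraries by 0.38 and 0.26. Psmb9 to Psmb6 gave differences between -0.31 and 0.22, with an exact p of 0.0556 or more. The smallest p that these group sizes allow runs from 0.000583 to 0.00794.

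Among treated groups no member was called. Loaded and empty polymersomes (0.0817% of all genes called) differed most in B2m (log2 fold change -0.44, 95% interval -1.21 to 0.32), Psmb9 (-0.38, -0.62 to -0.13, adjusted p = 0.479) and Tap1 (-0.33, -0.61 to -0.05, adjusted p = 0.845). All 5 rPS mice lay below all 4 PS mice for H2-K1 and Psmb9, a separation seen in either direction for 3.38% of genes with at least 270 counts. Loaded polymersomes against free rapamycin (0.0117% of all genes called) gave log2 fold changes between -0.76 (B2m, 95% interval -1.46 to -0.05) and 0.43 (Tap2, 0.11 to 0.75), with adjusted p of 0.349 or more. Loaded polymersomes against oral Rapamune (0.0175% of all genes called) gave values between -0.68 (B2m, -1.41 to 0.05) and 0.11 (Tap2, -0.22 to 0.44), with adjusted p of 0.517 or more. Unadjusted p under 0.05 was found for 2, 3 and 3 members in these comparisons, and neither DESeq2 nor limma voom called any.

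Between rapamycin by injection and by mouth, 3 members had ranges that did not overlap, although none was called. Every R mouse lay below every RO mouse for H2-K1 (1103 to 2006 CPM in R and 2104 to 2541 CPM in RO), Tap1 (226 to 353 CPM in R and 394 to 474 CPM in RO) and Psmb9 (77.8 to 94.4 CPM in R and 98.1 to 122 CPM in RO). Between these groups 0.532% of genes with at least 270 counts were so separated. The fitted log2 fold changes of R against RO were -0.41 ± 0.13 for H2-K1, -0.52 ± 0.12 for Tap1 and -0.37 ± 0.11 for Psmb9 (SE), and the unadjusted p was 0.00326, 0.000246 and 0.00215. None passed adjustment over 17132 genes (adjusted p = 0.383 for Tap1 and 1 for H2-K1 and Psmb9), and edgeR called 0% of all genes in this comparison. In all, 4 members had an unadjusted p under 0.05. DESeq2 called none (0.0759% of all genes called), and limma voom with sample weights called these 3 (0.73%). The 3 members stayed separated without the 6 libraries poor in T cell transcripts (5 R and 4 RO mice), when 5.12% of genes were.

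The wider pathway was read from lists of genes chosen by role. Of 15 other genes of peptide supply and loading, 2 were lower in rPS than in NT, the oxidoreductases Pdia6 (log2 fold change -0.96 ± 0.27, SE, adjusted p = 0.0174) and Pdia4 (-0.75 ± 0.23, adjusted p = 0.0243), which fold proteins in the same compartment as Pdia3, against 10.9% of all genes called lower. Neither was called without the 6 libraries poor in T cell transcripts, with marker covariates or in a fit of these 2 groups alone, where the list had 0 called. In R, RO and PS edgeR called 0 of the 15 (4, 1 and 5 with an unadjusted p under 0.05), DESeq2 0, 0 and 3 (Canx, Pdia4 and Pdia6 in PS), and limma voom 7, 6 and 6, with Pdia6 at -0.75, -0.51 and -0.84 by edgeR. Of all genes, DESeq2 called 2.67%, 0.986% and 17.2% in these comparisons, and limma voom 41.3%, 47.2% and 54.8%. Among 14 tested class I heavy chains outside the classical pair, the one lower in rPS was H2-T24 (-0.92 ± 0.20, adjusted p = 0.00385), beside 10.9% of all genes called lower. In R, RO and PS edgeR called 0 of the 14 (2, 0 and 4 with an unadjusted p under 0.05), DESeq2 0, 0 and 2 (H2-Q4 and H2-Q7, higher in PS), and limma voom 4, 7 and 10, beside the same shares of all genes as above. Without the 6 libraries H2-T22 and H2-T24 were called lower in rPS, and H2-T22 in R, where 3.19% and 0.241% of all genes were called in either direction. Of Psmb5, Psmb6 and Psmb7, the standard catalytic subunits, edgeR called 0 against NT in each group, with 2 at an unadjusted p under 0.05 in rPS and 0 in R, RO and PS.

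Of 15 transcriptional regulators of class I genes, 4 were lower in rPS than in NT, beside 10.9% of all genes called lower. Among them were Stat2 (log2 fold change -0.89 ± 0.21, SE, adjusted p = 0.00594) and Irf9 (-0.65 ± 0.15, adjusted p = 0.00604), which act in the response to type I interferon, and Nfya (-0.37 ± 0.13, adjusted p = 0.0388), a subunit of the factor that binds CCAAT. R had 2 lower, beside 0.607% of all genes, among them Irf9 (-0.62 ± 0.15, adjusted p = 0.0434). In RO and PS edgeR called 0 and 0 (2 and 3 with an unadjusted p under 0.05), DESeq2 0 and 2, and limma voom 7 and 6. Of all genes, DESeq2 called 0.986% in RO and 17.2% in PS, and limma voom 47.2% and 54.8%. Nlrc5, the class I transactivator, was not called by edgeR in any group, with log2 fold changes of 0.41 in rPS, -0.12 in R, 0.43 in RO and 0.55 in PS (adjusted p of 0.0656 or more), while DESeq2 called it in PS and limma voom in rPS, RO and PS.

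Of 36 interferon response genes, 24 were lower and none higher in rPS than in NT, beside 10.9% of all genes lower and 10.6% higher. Their median log2 fold change was -0.85, against -0.01 for all genes. Examples are Xaf1 (-1.38 ± 0.19, adjusted p = 0.000110), Irgm1 (-0.89 ± 0.15, adjusted p = 0.000818) and Oas3 (-2.22 ± 0.43, adjusted p = 0.00185). R had 5 lower (median -0.74, 0.607% of all genes lower), PS had 1, Rtp4 (median -0.57, 2.46% of all genes lower), and RO had none (median -0.36). In RO 5 had an unadjusted p under 0.05, and DESeq2 called 1 (0.986% of all genes). There limma voom called 27 lower and 2 higher (47.2% of all genes). The count of lower genes in R was 11 by DESeq2, 27 by voom and 1 in a fit of 2 groups alone. Of all genes, these 3 fits called 2.67%, 41.3% and 0.0639% there, in either direction. In PS the count was 11 by DESeq2, 25 by voom and 13 in a fit of 2 groups alone. There DESeq2 called 17.2% of all genes, voom 54.8% and the fit of 2 groups 2011 of 16408 genes, in either direction. In rPS a fit of 2 groups alone gave 15 lower, beside 7.07% of all genes called in either direction. Without the 6 libraries poor in T cell transcripts the counts were 14 in rPS (median -0.85, 3.19% of all genes called), 8 in R (median -0.78, 0.241%), 0 in RO (0.0118%) and 0 in PS (0.0118%). In that fit Stat2 and Irf9 stayed called in rPS. Beside these, of the 6 members not called in rPS, Calr had a log2 fold change of -0.46 (adjusted p = 0.0686), and H2-K1, H2-D1, Tap1, Tapbp and Psmb8 had values between -0.24 and 0.24.

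**Figure D4:**
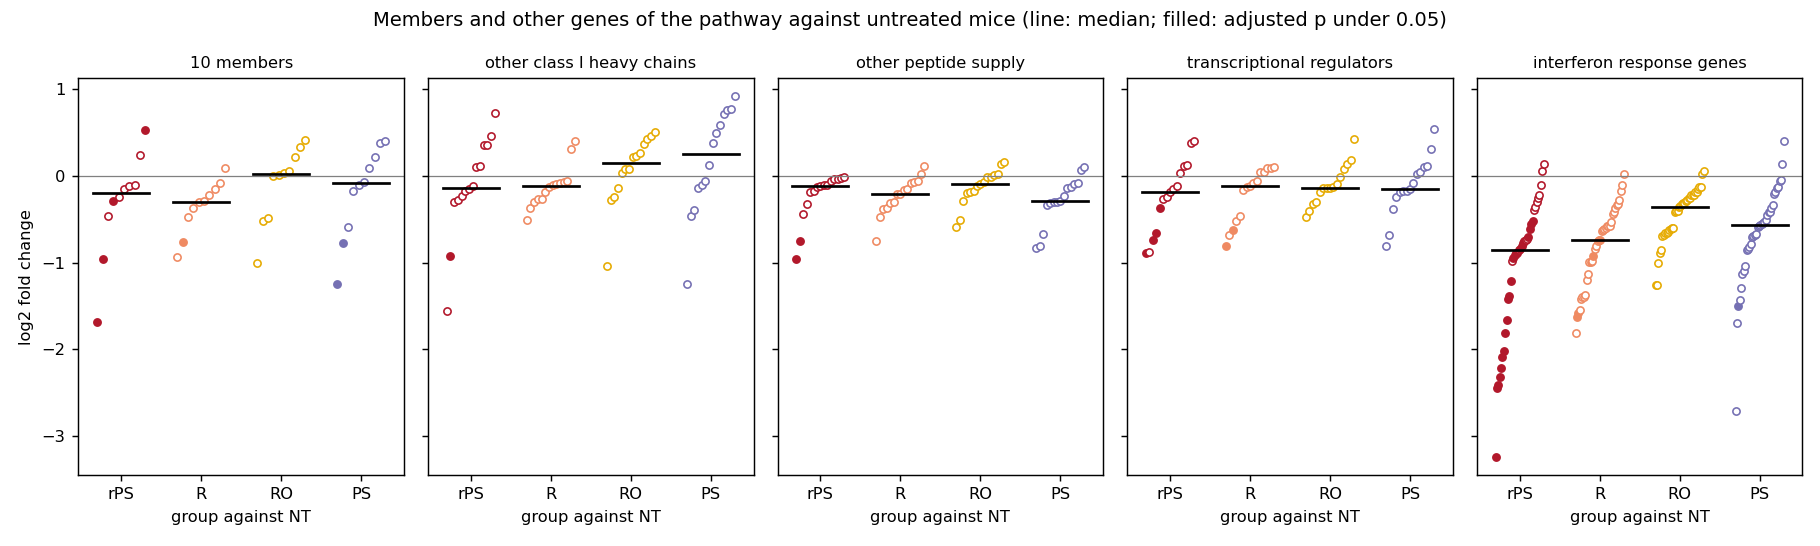
Log2 fold changes against NT of the 10 members and of 4 lists of other pathway genes, in rPS, R, RO and PS. Each point is a gene, filled where the edgeR adjusted p is under 0.05, and the line is the median of the list. The interferon response genes lie mostly below 0 in every group, with 24 of 36 filled in rPS, while the medians of the other lists lie between -0.30 and 0.26.

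The genes whose pattern was most like that of the members were found by Spearman correlation with the mean standardised log2 level of each role group over the 21 libraries not poor in T cell transcripts, among 11761 genes, as a description of libraries that also share treatment and cell makeup. For H2-K1, H2-D1 and B2m the nearest gene was H2-T22, another class I heavy chain (rho 0.91), followed by Nrn1 (0.86), Ldha (0.85), Sec61a1 (0.84) and Ass1 (0.82). For Tap1, Tap2, Tapbp, Psmb8 and Psmb9 it was Psmb10, the immunoproteasome subunit outside the class II region (rho 0.94), followed by Spint2 (0.86), Bscl2 (0.85), Ndufb7 (0.84) and Myd88 (0.83). For Pdia3 and Calr it was Chmp5 (rho 0.85), followed by Smu1 (0.84), Vamp8 (0.83), Ndufc2 (0.81) and Xcl1 (0.81). Within the first role group the genes were not alike: H2-K1 and H2-D1 had a rho of 0.48, while B2m had 0.03 with H2-K1 and -0.30 with H2-D1.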

How the data were processed

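RNA of CD3+ spleen T cells was sequenced in bulk, 1 library per mouse. The authors deposited 1 table per library of expected counts per Ensembl gene ID, of which 21.3% to 25.0% of the values above 0 were not whole; Trimmomatic 0.39, STAR 2.7.5a, Cufflinks 2.1.1, Cuffdiff and build GRCm39 are named per the submitters' processing notes, with the strand setting not given in the sources used here. Values were rounded for the tests and for CPM, which is the rounded count over the library total of rounded counts. Symbols, exon lengths and overlaps came from GENCODE M21 (94.0% of IDs matched), and promoters from RefSeq GRCm38.p6. All 27 libraries entered 1 edgeR 4.0.16 quasi-likelihood fit (R 4.3.3; TMM scaling, robust, low counts removed by group, Benjamini-Hochberg over 17132 genes), checked on simulated counts; every adjusted p not credited otherwise is from edgeR. A count of 3, the limit of detection used, stood for 0.191 to 0.700 CPM. Ratios were tested by exact permutation over mice, with the code checked against scipy 1.17.1. Alternatives were DESeq2 1.42.0, limma 3.58.1 voom with sample weights, other scaling and filters, marker covariates, a replicate block and left-out libraries. No library pair agreed within sampling noise (chi-square per gene of at least 3.30). All 10 members are named; of each list up to 4 called genes with the smallest p, and for each role group the 5 genes most like it. Nlrc5, the standard proteasome subunits, Malat1 and mt-Rnr2 are named beside that rule, with their values seen. The members and lists were chosen with earlier results of these data known. 1 gene of the regulator list is counted but not reported here by name.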

Additional observations from a re-analysis of the deposited data

Results flagged for a closer look

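Within a group of 4 to 7 mice, 1 value was far from the rest in 9 of 80 sets of values tested, where chance gives about 1 in 20. For H2-K1, RO replicate 5 was highest at 2541 CPM, against 2104 to 2167 CPM in the other RO mice. RO replicate 3, poor in T cell transcripts, was highest for H2-D1 at 3496 CPM (1843 to 2151 CPM in the other RO mice) and for Calr at 462.3 CPM (284 to 308 CPM). Its ratio of H2-K1 to H2-D1 counts was lowest in the group at 0.6018, against 1.06 to 1.18. R replicate 3, also poor in T cell transcripts, had the lowest such ratio of the R mice at 0.476, against 0.950 to 1.13. NT replicate 4, of the same kind, had the highest Tapbp level of the NT mice at 631.9 CPM, against 455 to 530 CPM. NT replicate 5 had a ratio of B2m to H2-K1 counts of 0.1043, against 0.452 to 0.637 in the other NT mice. Psmb8 was highest in PS replicate 5 at 211 CPM, against 194 to 197 CPM in the other PS mice, and Psmb10 was lowest in RO replicate 6 at 67.56 CPM, against 81.0 to 86.1 CPM in the other RO mice.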

How the results depend on the processing

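Of 3040 member fold changes recomputed, 2818 kept direction and side of the threshold, 89 lost a call, 42 gained one and 91 changed sign without a call in either fit (largest size in the fit reported 0.24, log2). For rPS against NT (4 members called) the count was 2 with 2 groups only (7.07% of all genes called). Without the 6 libraries poor in T cell transcripts it was 2 (3.19%), and 1 when rPS replicate 4 was also left out (2.33%). Leaving out each library gave 2 to 5 (12.4% to 27.3%). For R against NT (1) it was 2 by DESeq2 (2.67% of all genes called), 6 by limma voom (41.3%) and 0 with 2 groups only (0.0639%). Without those 6 and NT replicate 5 it was 2 (3.58%), and leaving out each library gave 0 to 2 (0.146% to 3.23%). For RO against NT (0) it was 6 by voom (47.2%) and 1 without those 6 and NT replicate 5 (3.55%). Leaving out each library gave 0 to 1 (0.0114% to 1.42%). For PS against NT (2) it was 0 with no low-count filter (0.137%), 4 by DESeq2 (17.2%) and 6 by voom (54.8%). It was 1 with 2 groups only (2011 of 16408 genes called), 0 without those 6 (0.0118%) and 0 with marker covariates (0.0175%). Without those 6 and NT replicate 5 it was 1 (7.62%), and without those 6 and rPS replicate 4 it was 0 (0.0119%). Leaving out each library gave 0 to 4 (0.0114% to 16.9%). For R against RO (0) it was 3 by voom (0.73%). The cause was not tested. The settings that left out those 6 and NT replicate 5, or those 6 and rPS replicate 4, were chosen after seeing the data.

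The labels do not say whether replicate numbers pair mice. Same-numbered libraries correlated between -0.357 and 0.763, with no comparison over 0.1 in every pair. With 3 to 6 such pairs in a comparison and no other pairs set beside them, these values cannot decide it. With the replicate block 3 members were called in rPS against NT (10.6% of all genes called), 0 in R (0.216%), 0 in RO (0.0117%) and 0 in PS (0.0175%).

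None of 315 recomputed ratio differences passed adjustment. Psmb8 to Psmb5 in R against NT was -0.16 without the 6 libraries. Leaving out each library, it ran from -0.049 to 0.089 in R against NT, -0.084 to 0.057 in RO against NT and -0.035 to 0.10 in R against RO; Psmb9 to Psmb6 from -0.18 to 0.037 in rPS against NT, -0.14 to 0.023 in RO against NT and -0.12 to 0.10 in rPS against RO; Psmb10 to Psmb7 from -0.41 to 0.25 in rPS against PS, -0.042 to 0.61 in rPS against R and -0.24 to 0.42 in rPS against RO. The ratios rest on counts as low as 76 (Psmb7), 88 (Psmb5), 153 (Psmb6) and 250 (Psmb10) in a library, and depth as a limit was not tested.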
